A study of Danio rerio with 30 samples.

Results

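Calretinin and the parvalbumins are small proteins that bind calcium through EF-hand loops. The genes described here are calb2a, which encodes a calretinin, and the parvalbumin genes pvalb5, pvalb6, pvalb7 and pvalb8. They were chosen by symbol, as the probe sets to which the platform annotation gives 1 of these 5 names. The choice was made with earlier results of these data known. Each name had 1 probe set, so there were 5 probe sets of the 15502 on the array that are not controls. Their NCBI gene identifiers in that annotation are 393691 for calb2a, 335623 for pvalb5, 360208 for pvalb8, 402806 for pvalb6 and 402807 for pvalb7. All 5 stood above 4 on the log2 scale in 30 of 30 arrays and passed the filter on low values, which kept 10531 probe sets.

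Expression was measured on Affymetrix Zebrafish arrays, 3 in each of 10 groups, in adult AB strain fish that were 1 year old. The groups were a control with neither agent, the insecticide chlorpyrifos (CPF) alone at 0.1, 0.25 or 0.6, copper (Cu) alone at 0.1, 0.25 or 0.6, and Cu 0.25 together with CPF at 0.1, 0.25 or 0.6. Concentrations are printed without a unit because the sources used here give none. As for the tissue, the labels name olfactory rosettes as the source, and their tissue field adds olfactory bulbs and telencephalons.

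An EF-hand protein of this kind takes up calcium ions when they rise in a cell and gives them back as they fall, which shapes how long and how far a calcium signal travels. Calretinin is found mainly in neurons, and antibodies against it label olfactory sensory neurons in the zebrafish nose. Parvalbumins are best known from fast skeletal muscle, where they speed relaxation, and from some neurons. In zebrafish, pvalb7 is known from Purkinje cells of the cerebellum and pvalb8 from hair cells.

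The genes fell into a set of 3 that were lower in the copper groups and a pair that were not. Over all 30 arrays, calb2a ranged from 8.59 to 11.23 on the log2 scale, pvalb5 from 11.10 to 13.94 and pvalb8 from 4.93 to 9.45. The same range was 5.64 to 6.13 for pvalb6 and 7.80 to 8.41 for pvalb7. These levels are of different probe sets, so only differences within a gene can be read from them. In tissue RNA, fewer cells of a type and less RNA per cell cannot be told apart.

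Calretinin, calb2a, is described first. Its log2 levels in the control arrays were 11.19, 10.88 and 10.97. With Cu 0.1 alone they were 9.76, 10.02 and 10.14. With Cu 0.25 alone they were 10.18, 9.34 and 9.19. Cu 0.6 alone gave the lowest calb2a levels of any group, at 8.59, 8.75 and 8.93. All 3 arrays of each copper group thus lay below all 3 controls. With each concentration taken alone, that held for 7.92%, 4.96% and 6.44% of probe sets at Cu 0.1, 0.25 and 0.6. The group means, from 11.02 ± 0.16 (SD, n = 3) in control to 8.76 ± 0.17 (SD, n = 3) in Cu 0.6, descended in the order of the copper concentration.

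The parvalbumin pvalb5 followed the same order. Control arrays read 13.85, 13.43 and 13.94 on the log2 scale. Cu 0.1 alone read 12.46, 12.96 and 12.58, and Cu 0.25 alone read 12.59, 12.09 and 11.78. Levels with Cu 0.6 alone were 11.26, 11.10 and 11.69, below every other array of the series for this gene. The Cu 0.6 arrays were also the lowest of the series for calb2a. What share of probe sets shows this separation was not taken. No array of a copper group reached the lowest control, a separation with the shares given above for calb2a.

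The third gene that fell, pvalb8, had the widest range. Its log2 levels were 9.32, 8.89 and 8.68 in control. Cu 0.1 alone gave 7.63, 7.98 and 7.39. At Cu 0.25 alone, replicate 1 stood at 8.08, apart from replicates 2 and 3 at 6.41 and 6.62. Cu 0.6 alone took pvalb8 to 5.68, 4.93 and 5.85. Every copper array was below all 3 controls here too, with the same shares of probe sets as given for calb2a. Replicate 1 of Cu 0.25 lay above all 3 arrays of Cu 0.1.

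The other pair kept to a narrow band. For pvalb6, control arrays were at 5.93, 5.64 and 5.91 on the log2 scale and the Cu 0.6 arrays at 5.84, 5.89 and 5.78. For pvalb7, control arrays were at 7.96, 8.06 and 8.34 and Cu 0.6 arrays at 8.09, 8.30 and 8.08. Control and Cu 0.6 overlapped for both genes. Their group means spanned 5.83 to 5.97 for pvalb6 and 8.05 to 8.23 for pvalb7, and every pair of groups next to each other in that order overlapped.

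**Figure D1:**
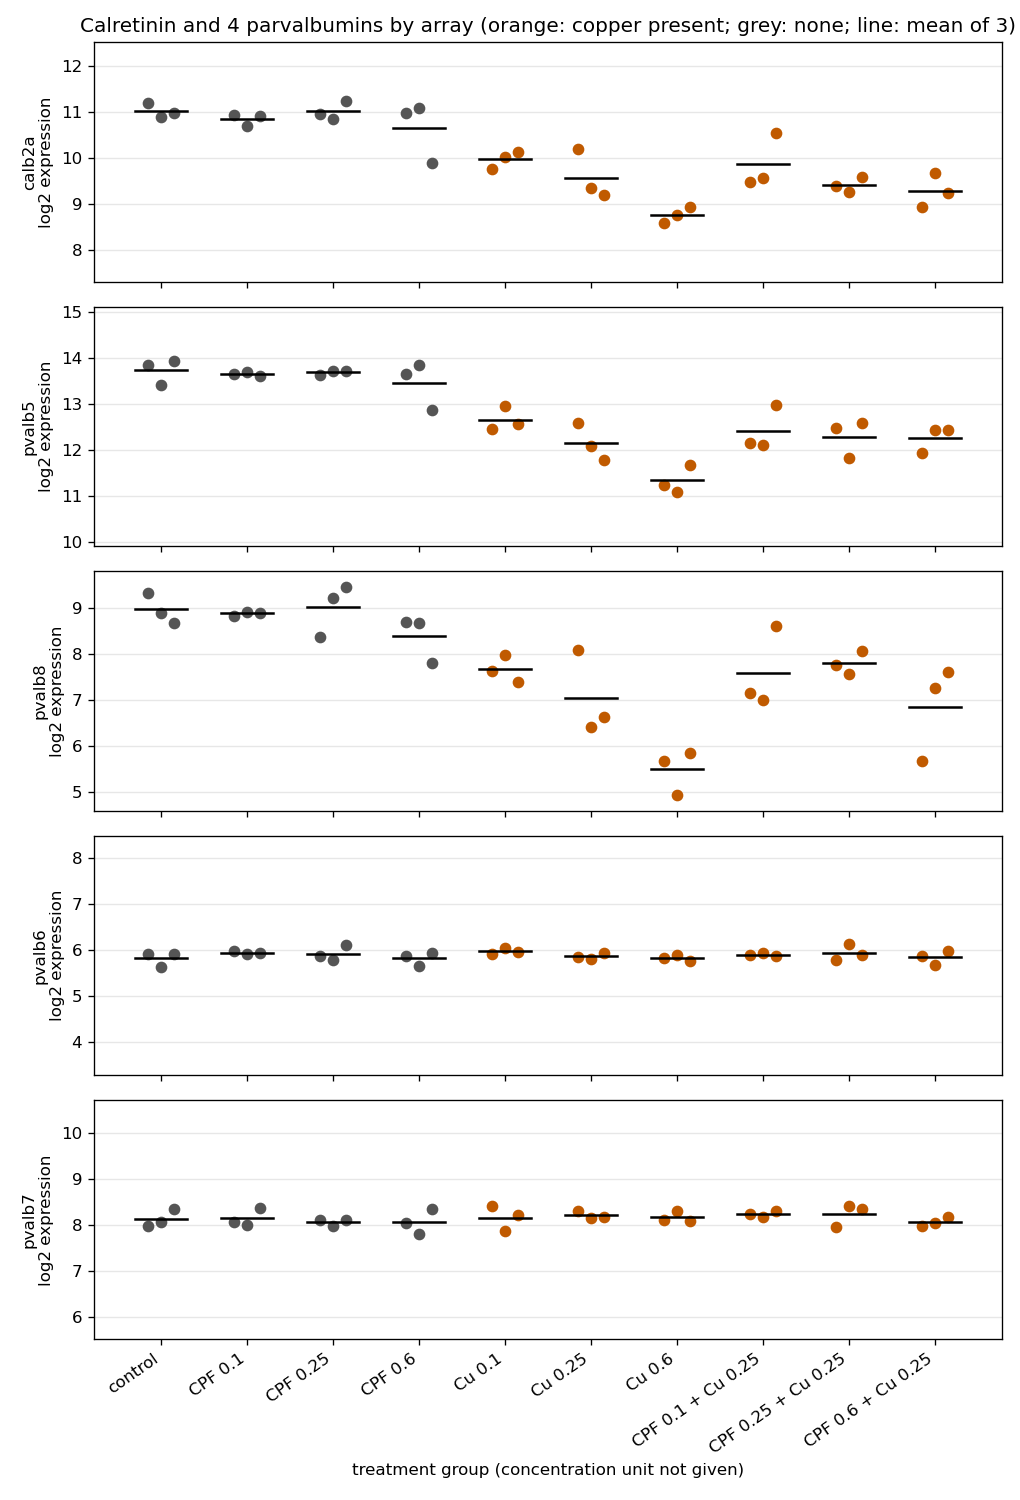
Log2 expression (vertical axes, each spanning the same number of log2 units) of calb2a, pvalb5, pvalb8, pvalb6 and pvalb7 in the 30 arrays, by treatment group; points are arrays, lines are means of 3, and orange marks groups with copper. The copper groups sit lower for calb2a, pvalb5 and pvalb8, down to means of 8.76, 11.35 and 5.49 at Cu 0.6, while pvalb6 and pvalb7 stay near 5.9 and 8.1.

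Ordered by group mean, calb2a ran from control (11.02) through CPF 0.25 (11.01), CPF 0.1 (10.85) and CPF 0.6 (10.65) to the copper groups. Those were Cu 0.1 (9.97), the mixtures and Cu 0.25 between 9.86 and 9.28, and Cu 0.6 (8.76). Neighbours in this order overlapped in their arrays except the last, Cu 0.6, which was clear of the mixture with CPF 0.6. For pvalb5 the 4 groups without copper lay between 13.74 and 13.46 and the copper groups between 12.67 and 11.35, and again only Cu 0.6 was clear of its neighbour, Cu 0.25 (12.15). For pvalb8 the groups without copper lay between 9.01 and 8.38 and the copper groups between 7.79 and 5.49. There Cu 0.6 overlapped the mixture with CPF 0.6 (6.85 ± 1.03, SD, n = 3), and the only neighbours apart were CPF 0.1 and CPF 0.6. The share of probe sets apart in these pairs of neighbours was not taken. In the comparisons of 3 arrays below 3 where it was taken, it ran from 4.96% to 9.65%, so such gaps were common.

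Changes are given as log2 differences from a limma fit to all 30 arrays, with a term for the date in the sample titles. The p-values were adjusted by the Benjamini-Hochberg method across the 10531 probe sets, and a gene passed where its value was under 0.05. The labels do not say that replicates came from separate exposures, so a p-value covers only the spread from array to array, which may be technical. At Cu 0.6 against control, calb2a fell by 2.30 ± 0.30 (SE, n = 3 against 3), a 4.93-fold lower level, with adjusted p = 0.000127. The change of pvalb5 was -2.44 ± 0.27 (SE), or 5.41-fold lower, with adjusted p = 6.01e-05. For pvalb8 the change was -3.44 ± 0.49 (SE), or 10.8-fold lower, with adjusted p = 0.000463. Of all probe sets tested, 1.62% passed in this comparison and 0.94% passed as lower, and 3 of the 5 genes were among the latter. The genes were chosen with earlier results known, so this count is a description and no test of the set. All 3 Cu 0.6 arrays lay below all 3 controls for 6.44% of probe sets. By comparison, pvalb6 differed by 0.03 with a 95% interval of -0.20 to 0.26 (adjusted p = 0.941), and pvalb7 by 0.04 with an interval of -0.28 to 0.37 (adjusted p = 0.926). These intervals leave out the changes measured for the other genes. The median over all probe sets tested was 0.05.

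At the lower concentrations the 3 genes moved the same way with less certainty. Cu 0.25 against control gave -1.45 ± 0.29 (SE) for calb2a (adjusted p = 0.029), -1.59 ± 0.27 for pvalb5 (adjusted p = 0.0145) and -1.92 ± 0.48 for pvalb8 (adjusted p = 0.0872). In this comparison 0.351% of probe sets passed, and 4.96% had all 3 copper arrays below all 3 controls, as these 3 genes did. The calls for calb2a and pvalb5 rested on few arrays. That for calb2a ended without Cu 0.25 replicate 2 (adjusted p = 0.209) or 3 (0.0818), or without control replicate 1 (0.197), 2 (0.0689) or 3 (0.0737). That for pvalb5 ended without Cu 0.25 replicate 2 (adjusted p = 0.112) or without control replicate 1 (0.0788) or 3 (0.0656). Conversely, pvalb8 passed once the high array, Cu 0.25 replicate 1, was left out, at -2.63 with adjusted p = 0.0167.

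With Cu 0.1 against control no gene passed. The differences were -1.02 ± 0.30 (SE, adjusted p = 0.325) for calb2a, -1.07 ± 0.28 (adjusted p = 0.244) for pvalb5 and -1.32 ± 0.49 (adjusted p = 0.379) for pvalb8. Their 95% intervals all lay below 0, with upper ends at -0.40, -0.50 and -0.29. Limma called 0 of the 10531 probe sets here, a share of 0%, with 1136 at an unadjusted p under 0.05. All 3 Cu 0.1 arrays were below all 3 controls for 7.92% of probe sets, so separation of this kind was common. When arrays were weighted by their fit, all 3 genes passed at Cu 0.1, with adjusted p of 0.00993 for calb2a, 0.00288 for pvalb5 and 0.0131 for pvalb8, and so did 1460 probe sets. That fit gave Cu 0.1 replicate 3 a weight of 14.5, against 0.435 and 0.632 for replicates 1 and 2 and 3.17 for the next highest array of the series, so its Cu 0.1 values rest largely on 1 array. In that fit pvalb6 passed as higher, at 0.28 with adjusted p = 0.0384.

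A trend in the ranked concentrations, from control through Cu 0.1 and Cu 0.25 to Cu 0.6, used all 4 groups at once. Per step, calb2a fell by 0.73 ± 0.09 (SE, adjusted p = 0.000108), pvalb5 by 0.78 ± 0.09 (adjusted p = 4.19e-05) and pvalb8 by 1.09 ± 0.15 (adjusted p = 0.000333). The trend was -0.00 per step for pvalb6 (adjusted p = 0.97) and 0.02 for pvalb7 (adjusted p = 0.886). Probe sets passing this trend were 2.23% of all, 0.978% as lower. Raw group means descended in strict order over control, Cu 0.1, Cu 0.25 and Cu 0.6 for calb2a, pvalb5 and pvalb8, as they did for 3.49% of probe sets, but not for pvalb6 or pvalb7.

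Between copper concentrations, only pvalb5 passed. From Cu 0.1 to Cu 0.6 it changed by -1.36 ± 0.28 (SE, adjusted p = 0.0461), with all 3 arrays of the higher concentration below all 3 of the lower. This call did not survive the loss of any 1 of the 6 arrays. Dropping Cu 0.1 replicate 1, 2 or 3 gave an adjusted p of 0.102, 0.105 or 0.109, and dropping Cu 0.6 replicate 1, 2 or 3 gave 0.118, 0.0923 or 0.119. The same step was -1.28 ± 0.30 for calb2a and -2.12 ± 0.50 for pvalb8, each with adjusted p = 0.0779. In this comparison 0.152% of probe sets passed, and 6.11% had all 3 Cu 0.6 arrays below all 3 of Cu 0.1. That separation was also seen for calb2a, pvalb8 and pvalb6, the last at -0.13 (adjusted p = 0.732). For pvalb7 the step was 0.04 (adjusted p = 0.964). From Cu 0.25 to Cu 0.6 the differences were -0.85 for calb2a (adjusted p = 0.431), -0.85 for pvalb5 and -1.51 for pvalb8 (adjusted p = 0.414 for both), against a background of 0.038% called.

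Chlorpyrifos alone left no detectable change in any of the 5 genes. For calb2a the arrays read 10.94, 10.70 and 10.92 at CPF 0.1, 10.96, 10.84 and 11.23 at CPF 0.25, and 10.98, 11.09 and 9.90 at CPF 0.6. For pvalb5 they read 13.66, 13.69 and 13.62 at CPF 0.1, 13.64, 13.73 and 13.73 at CPF 0.25, and 13.65, 13.86 and 12.87 at CPF 0.6. For pvalb8 they read 8.83, 8.91 and 8.88 at CPF 0.1, 8.37, 9.21 and 9.45 at CPF 0.25, and 8.70, 8.67 and 7.79 at CPF 0.6. In all 3 genes, replicate 3 of CPF 0.6 was the lowest of the 12 arrays without copper. The most negative difference was that of pvalb8 at CPF 0.6, -0.64 with a 95% interval of -1.67 to 0.39 (adjusted p = 0.761). At CPF 0.6, calb2a differed by -0.30 (interval -0.92 to 0.33), pvalb5 by -0.24 (-0.81 to 0.34), pvalb6 by -0.01 (-0.24 to 0.22) and pvalb7 by -0.09 (-0.42 to 0.23). Across the 3 concentrations and 5 genes adjusted p ran from 0.761 to 0.997. These comparisons called 0%, 0% and 0.0095% of probe sets at CPF 0.1, 0.25 and 0.6, with 723, 609 and 893 at an unadjusted p under 0.05.

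Mixtures with Cu 0.25 had low levels of the same 3 genes. In the mixture with CPF 0.1, calb2a read 9.48, 9.56 and 10.54, pvalb5 read 12.16, 12.11 and 12.99, and pvalb8 read 7.15, 6.99 and 8.59. With CPF 0.25, calb2a read 9.38, 9.26 and 9.58, pvalb5 read 12.48, 11.82 and 12.60, and pvalb8 read 7.76, 7.56 and 8.06. With CPF 0.6, calb2a read 8.94, 9.66 and 9.23, pvalb5 read 11.95, 12.45 and 12.43, and pvalb8 read 5.68, 7.26 and 7.60. Every one of these arrays was below all 3 controls for its gene, as was the case for 9.65%, 9.06% and 5.8% of probe sets in the mixtures with CPF 0.1, 0.25 and 0.6. Replicate 3 of CPF 0.1 with copper was the highest of the 18 copper arrays for all 3 genes. In pvalb6 and pvalb7 the range of each mixture overlapped that of the controls. For pvalb6, 1 array of each mixture lay above all 3 controls. For pvalb7 with CPF 0.25, the arrays at 7.94, 8.40 and 8.35 lay on either side of the controls, which ran from 7.96 to 8.34.

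Against control, the mixture with CPF 0.25 changed calb2a by -1.61 ± 0.29 (SE, adjusted p = 0.0241) and pvalb5 by -1.44 ± 0.27 (adjusted p = 0.0264). The mixture with CPF 0.6 changed them by -1.74 ± 0.29 (adjusted p = 0.0268) and -1.46 ± 0.27 (adjusted p = 0.0271). The mixture with CPF 0.1 missed the threshold, at -1.09 for calb2a (adjusted p = 0.14) and -1.28 for pvalb5 (adjusted p = 0.0693). For pvalb8 none passed, the changes being -1.44, -1.17 and -2.12 with rising CPF (adjusted p = 0.184, 0.255 and 0.0865). The shares called were 0.171%, 0.18% and 0.095% in the same order. Leaving out single arrays ended these calls often. For calb2a with CPF 0.25 the adjusted p was 0.0716, 0.166 and 0.0566 without that mixture's replicates 1, 2 and 3 and 0.129 without control replicate 1. With CPF 0.6 it was 0.218 and 0.0785 without replicates 1 and 3 and 0.131 and 0.115 without control replicates 1 and 3. For pvalb5 with CPF 0.25 it was 0.0685, 0.213 and 0.0566 without replicates 1, 2 and 3 and 0.142 without control replicate 1. With CPF 0.6 it was 0.262, 0.0869 and 0.0785 without replicates 1, 2 and 3 and 0.185 and 0.115 without control replicates 1 and 3. For pvalb5 with CPF 0.1 the call was gained, at -1.58 and adjusted p = 0.0219, without that mixture's replicate 3.

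Set against CPF alone, the 3 genes read lower with copper at each CPF concentration, with all 3 arrays below all 3 in every case. That separation was shown by 5.98%, 7.82% and 5.61% of probe sets at CPF 0.1, 0.25 and 0.6. In the main fit only calb2a and pvalb5 at CPF 0.25 passed. At CPF 0.25 the change was -1.63 ± 0.30 (SE, adjusted p = 0.0225) for calb2a and -1.39 ± 0.28 (adjusted p = 0.0299) for pvalb5, with 0.399% of probe sets called. It was -1.20 ± 0.49 for pvalb8 (adjusted p = 0.398). Neither call held in any fit that left out 1 of the 6 arrays, where adjusted p ranged from 0.057 to 0.143 for calb2a and from 0.0576 to 0.24 for pvalb5. At CPF 0.1 the changes were -0.99 for calb2a (adjusted p = 0.423), -1.24 for pvalb5 (0.224) and -1.30 for pvalb8 (0.592). At CPF 0.6 they were -1.44 (adjusted p = 0.0855), -1.23 (0.108) and -1.48 (0.399). These comparisons at CPF 0.1 and CPF 0.6 called 0% of probe sets, with 715 and 654 at an unadjusted p under 0.05. Without the array of CPF 0.6 that stood low the change at that level was -1.80 for calb2a (adjusted p = 0.00444) and -1.50 for pvalb5 (adjusted p = 0.0172). With that array kept, calb2a also passed without a batch term (0.0476), with the batch as a random block (0.0495) and with array weights (0.00146), and pvalb5 with array weights (0.00404). At the lowest CPF level pvalb5 passed with array weights (0.0297) and without the high mixture array, at -1.55 with adjusted p = 0.0157. The effect of copper was -0.5 or lower at all 4 CPF levels, none included, for calb2a, pvalb5 and pvalb8, as it was for 0.446% of probe sets, and at no level for pvalb6 or pvalb7.

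**Figure D2:**
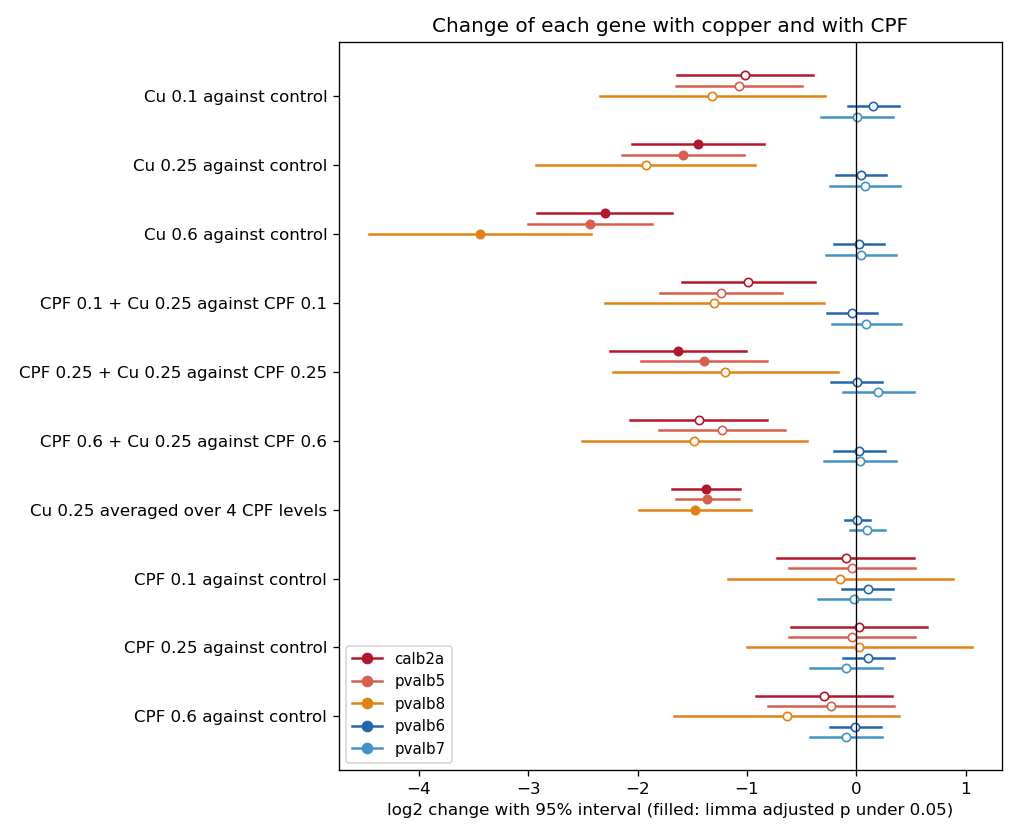
Log2 change of each gene (horizontal axis) with its 95% interval in 10 comparisons; filled points passed the limma threshold of adjusted p under 0.05. The intervals of calb2a, pvalb5 and pvalb8 lie below 0 in every comparison that adds copper and span 0 with CPF alone, while those of pvalb6 and pvalb7 span 0 throughout.

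Averaging Cu 0.25 against none over the 4 CPF levels set 12 arrays against 12. The log2 change was -1.38 ± 0.15 (SE, adjusted p = 9.46e-06) for calb2a, -1.36 ± 0.14 (adjusted p = 4.08e-06) for pvalb5 and -1.47 ± 0.25 (adjusted p = 0.000975) for pvalb8. In fold these were 2.6, 2.57 and 2.78 lower. Of all probe sets, 4.35% passed and 2.17% passed as lower. With the date term removed, all 12 copper arrays lay below the median of the 12 others for each of these genes, as for 2.62% of probe sets. In the values as deposited, 10 of the 12 lay below all 12 others in calb2a, 11 in pvalb5 and 9 in pvalb8. All 12 did so for 0.0665% of probe sets, a stricter mark that none of these genes met. The share of probe sets at the genes' own counts was not taken. The change was 0.01 (95% interval -0.11 to 0.12, adjusted p = 0.956) for pvalb6 and 0.10 (-0.06 to 0.26, adjusted p = 0.523) for pvalb7, beside a median of 0.02 over all probe sets.

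The dates in the titles split the arrays into sets of 12, 13 and 5, called title batches here, and nothing says what the dates are. Within title batch 1 alone the averaged copper change was -1.35 for calb2a (adjusted p = 0.363), -1.36 for pvalb5 (0.324) and -1.39 for pvalb8 (0.363), close to the pooled values. Limma called 0 probe sets in that batch. Within title batch 2, calb2a and pvalb5 passed, and pvalb8 was at -1.61 with adjusted p = 0.0796. The calls at Cu 0.25 and in the mixtures ended without title batch 3, whose loss also takes 1 array from control and from several copper groups: the range of adjusted p was then 0.0594 to 0.611.

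Adding CPF to Cu 0.25 gave no change that passed, where 0%, 0% and 0.0095% of probe sets did at CPF 0.1, 0.25 and 0.6. Against Cu 0.25 alone the mixtures with CPF 0.1, 0.25 and 0.6 differed by 0.36, -0.16 and -0.29 for calb2a, by 0.31, 0.15 and 0.12 for pvalb5 and by 0.48, 0.76 and -0.19 for pvalb8. The widest 95% interval, for pvalb8 with CPF 0.1, ran from -0.55 to 1.51. The F-test of CPF averaged over copper had adjusted p from 0.985 to 0.991 for the 5 genes, where 0.0285% of probe sets passed. That of the CPF by copper interaction had adjusted p = 0.99994 for each gene, where 0% passed and 386 probe sets had an unadjusted p under 0.05.

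Whether the genes differed from each other in their response was estimated from the difference of their log2 values within each array, over all 10 pairs. A constant shift of a whole array cancels in this difference. Any difference between probe sets in how they scale with RNA level does not cancel, and it was not tested. For averaged copper, calb2a minus pvalb5 was -0.02 (95% interval -0.20 to 0.17), calb2a minus pvalb8 was 0.10 (-0.25 to 0.45) and pvalb5 minus pvalb8 was 0.11 (-0.24 to 0.47). At Cu 0.25, then, no difference among the 3 genes was resolved, and the first pair was held within about 0.2. The pairs that cross the sets were far from 0, from -1.37 (-1.72 to -1.02) for pvalb5 minus pvalb6 to -1.57 (-2.18 to -0.97) for pvalb8 minus pvalb7. The sets were formed from these same copper changes, so a gap between them follows from the grouping. Within the other pair, pvalb6 minus pvalb7 was -0.09 (-0.25 to 0.07).

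At Cu 0.6, pvalb8 fell further than calb2a by 1.14 (95% interval 0.44 to 1.84) and further than pvalb5 by 1.0 (0.30 to 1.70). Without title batch 3 these differences were 0.71 (0.08 to 1.34) and 0.67 (0.07 to 1.26). Whether they were larger at Cu 0.6 than at Cu 0.25 was not resolved: from Cu 0.25 alone to Cu 0.6 the difference moved by 0.66 for both pairs, with 95% intervals of -0.04 to 1.36 and -0.04 to 1.37, and by 0.11 and 0.15 without title batch 3. The pair calb2a minus pvalb5 remained near 0, at 0.14 (-0.23 to 0.50), and pvalb6 minus pvalb7 was -0.02 (-0.33 to 0.30).

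**Figure D3:**
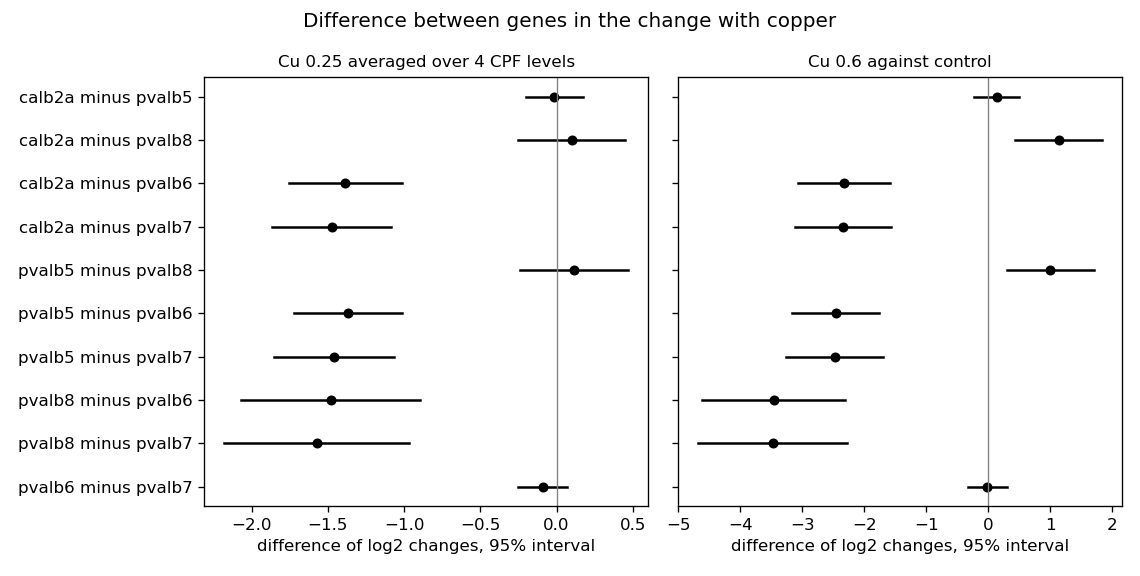
Difference between 2 genes in their log2 change (horizontal axes, points with 95% intervals), first gene minus second, for Cu 0.25 averaged over the 4 CPF levels (left) and for Cu 0.6 against control (right). At Cu 0.25 the intervals within the set of 3 span 0. At Cu 0.6 calb2a minus pvalb8 and pvalb5 minus pvalb8 sit at 1.14 and 1.0. Whether these differences were larger at Cu 0.6 than at Cu 0.25 was not resolved.

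In several arrays the set of 3 deviated together from the group. After group and title batch were removed, the log2 residuals of CPF 0.6 replicate 3 were -0.72 in calb2a, -0.54 in pvalb5 and -0.64 in pvalb8. The high mixture array, CPF 0.1 with copper replicate 3, had residuals of 0.72, 0.61 and 0.97 in the same order. Cu 0.25 replicate 1 had residuals of 0.52, 0.40 and 1.12. In pvalb6 the residuals of these 3 arrays ran from -0.05 to 0.10. In pvalb7, CPF 0.6 replicate 3 was at 0.28, the highest residual of that gene and opposite in sign to those of the set of 3. The mixture array was at 0.06 and Cu 0.25 replicate 1 at 0.15. Some other arrays deviated mainly in pvalb8. CPF 0.25 replicate 1 had a residual of -0.60 in pvalb8, against -0.09 in calb2a and -0.11 in pvalb5. Control replicate 1 had 0.44, against 0.08 and 0.07.

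Over the 30 arrays the correlation of those residuals was 0.837 between calb2a and pvalb5, 0.807 between calb2a and pvalb8 and 0.822 between pvalb5 and pvalb8. Between the sets it lay from -0.298 to -0.115, and it was 0.393 between pvalb6 and pvalb7. These values are descriptions: the points share the arrays, the dissection and the scaling of each array. In the log2 values themselves, group differences included, the correlations within the set of 3 were 0.966, 0.915 and 0.930.

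**Figure D4:**
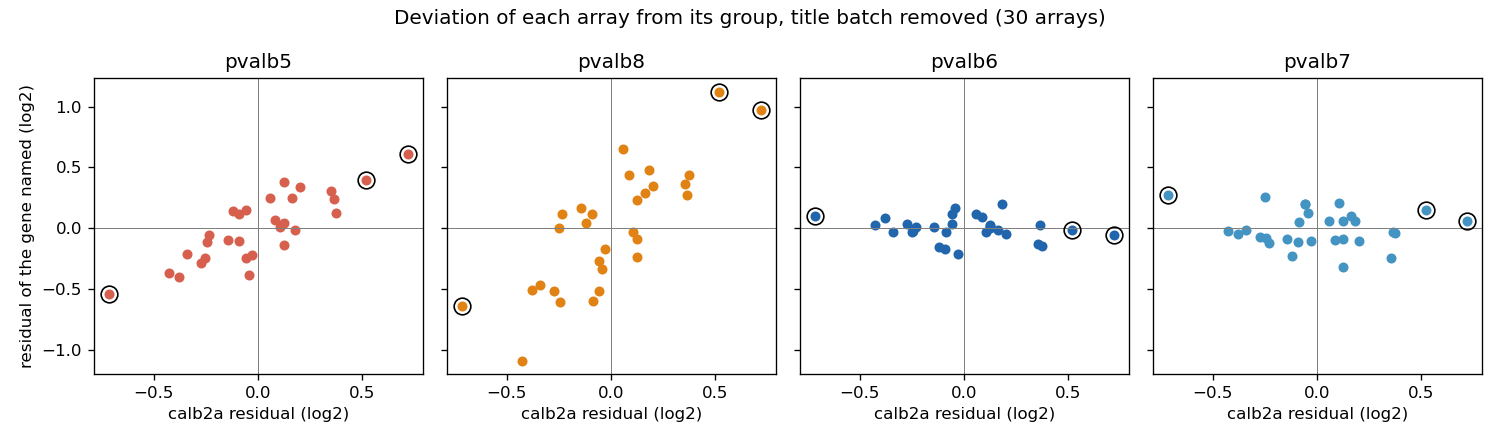
Deviation of each of 30 arrays from its group mean after the title batch was removed (log2), for calb2a on the horizontal axis and for pvalb5, pvalb8, pvalb6 and pvalb7 on the vertical axes; rings mark CPF 0.6 replicate 3, CPF 0.1 + Cu 0.25 replicate 3 and Cu 0.25 replicate 1. Deviations of pvalb5 and pvalb8 follow those of calb2a (r of 0.837 and 0.807), while r is -0.206 for pvalb6 and -0.117 for pvalb7.

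The genes most like each one were found by correlation over the 30 arrays with the title batch removed, among 6443 other genes. For calb2a they were atf5a (r = 0.973), a leucine zipper transcription factor, fstl5 (0.959), a follistatin-like protein, and gng13b (0.953), a G protein gamma subunit of olfactory sensory neurons. For pvalb5 they were fstl5 (0.977), s100z (0.971), an S100 protein with EF hands, and atf5a (0.968). The nearest to pvalb8 were s100z (0.943), atp1a1a.3 (0.941), a sodium pump alpha subunit, and si:dkey-92k1.9 (0.921). The 95th percentile of r over all those genes was 0.458 for calb2a, 0.452 for pvalb5 and 0.456 for pvalb8. With the group means removed too, the closest were atf5a (0.833), s100z (0.825) and fstl5 (0.815) for calb2a, and atf5a (0.914), sult2st1 (0.894), a sulfotransferase, and fstl5 (0.883) for pvalb5. For pvalb8 they were atp1a1a.3 (0.853), s100z (0.814) and atf5a (0.765). The averaged copper change of these neighbours was -1.07 for atf5a, -1.08 for fstl5, -0.98 for atp1a1a.3, -1.82 for sult2st1 and -1.84 for si:dkey-92k1.9, all past the threshold. Picking by correlation with the group means left in favours genes with a like copper change, so most of these values are no separate result.

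The other pair had other neighbours, at lower correlations. They were tubb2 (r = 0.647), a beta tubulin, zc3h18 (0.624) and emc6 (0.621) for pvalb6, and atp6v1b2 (0.746), a proton pump subunit, sub1b (0.745) and emc6 (0.744) for pvalb7. The 95th percentile of r was 0.391 and 0.537. None of these 5 genes passed the averaged copper comparison, which is likewise no separate result.

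In the GRCz12tu assembly, pvalb8, pvalb4, pvalb1 and pvalb5 are neighbours in that order, with 0 coding genes between each and the next. Of these, pvalb5 and pvalb8 fell with copper, while pvalb1 and pvalb4 stood below 4 in all 30 arrays, as did pvalb2, pvalb3, pvalb9, calb1 and calb2b. The gene pvalb6 is on the same chromosome as pvalb8, 757 coding genes away, and pvalb7 and calb2a are each on another. Whether the probes of 1 parvalbumin also bind transcripts of another was not tested.

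Other calcium genes are given by 4 lists, beside the 4.35% of all probe sets that passed with averaged copper. The lists are short and hold few calls, so nothing is read from their shares. Of 9 measured S100 family genes 1 fell, s100z at -1.51 ± 0.20 (SE, adjusted p = 5.93e-05), and none rose, with a list median of 0.06. Its change at Cu 0.6 was -3.18. Of 12 measured neuronal calcium sensors and other EF-hand genes none passed, with a median of 0.06. The calmodulin gene calm3a was at 0.14 ± 0.07 (adjusted p = 0.324) and hpca, a hippocalcin, at 0.05 ± 0.10 (adjusted p = 0.814). Among 14 measured genes of calcium pumps, exchangers and stores, atp2b2, a plasma membrane calcium pump, fell by 0.41 ± 0.07 (SE, adjusted p = 0.00215). The calreticulin gene calr3a rose by 0.39 ± 0.09 (adjusted p = 0.0143), a call that ended without title batch 3 (0.0604). That list's median was 0.07. None of 8 measured calcium-dependent kinase and phosphatase genes passed, and their median was 0.02. At Cu 0.6, s100z was the only gene of these 4 lists to pass, where 1.62% of all probe sets did.

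Marker levels of several cell types were set beside the falls, and their part in the result was not tested. The olfactory sensory neuron markers that were measured both fell with averaged copper, ompb, the olfactory marker protein, by 1.26 ± 0.19 (SE, adjusted p = 0.000443) and gng13b by 0.89 ± 0.08 (adjusted p = 3.43e-06). These were 2 of 3 markers of that list on the array, of 22 listed. Among all probe sets tested, 4.35% passed with averaged copper and 2.17% passed as lower. At Cu 0.6 their changes were -2.48 and -1.47, beside those of -2.30, -2.44 and -3.44 for calb2a, pvalb5 and pvalb8. The ompb arrays at Cu 0.6 stood at 3.56, 3.89 and 3.60, below the filter level of 4, so its fall may be understated. The mean log2 level of both markers was 6.62 to 8.26 in the 18 copper arrays and 7.95 to 9.01 in the 12 others. In CPF 0.6 replicate 3 it was 7.95, the lowest of those 12.

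The other marker lists are given in turn, beside the 4.35% of all probe sets that passed with averaged copper, 2.17% as lower. Each list holds few calls, and nothing is read from its share. The 9 measured markers of all neurons had no call, with a mean level of 11.07 to 11.50 in copper arrays and 11.08 to 11.51 in the others. The 11 measured markers of bulb and telencephalon neurons ranged from 8.87 to 9.24 and from 8.77 to 9.27, and 1 of them, th, the first enzyme of dopamine synthesis, fell by 0.32, a call held in 13 of 24 fits without 1 array. Olfactory and other epithelium, with 20 measured, ranged from 9.17 to 9.93 and from 9.22 to 9.89, and its only call was agr2, higher by 0.88. Of the markers of hair cells and ionocytes 2 were measured. The sodium pump subunit atp1a1a.3 fell by 0.98 with averaged copper, a call that ended without the 4 arrays named next (adjusted p = 0.101). Its change at Cu 0.6 was -2.84 ± 0.46 (SE, adjusted p = 0.00153), beside -2.48 for ompb and -1.47 for gng13b. As given above, the ompb arrays at Cu 0.6 stood below 4. The hair cell gene otofa, an otoferlin, was at 0.43 ± 0.15 there (adjusted p = 0.146). This list's level was 6.08 to 7.86 in copper arrays and 7.22 to 7.75 in the others. Of 14 skeletal muscle markers on the array, 13 did not pass the filter on low values, and the mean level of the other was 4.05 to 4.33 and 4.17 to 5.26. Liver and pancreas markers, 11 measured, fell in 2 cases, fabp10a by 0.96 and apoa2 by 1.02, with a list median of -0.59 and levels of 4.77 to 6.26 against 4.97 to 7.65. The apoa2 call held in 15 of 24 fits without 1 array. Without the 4 arrays found rich in such transcripts (CPF 0.25 replicates 1 and 3, Cu 0.25 replicate 3 and CPF 0.6 replicate 2) the fabp10a and apoa2 calls ended (adjusted p = 0.0589 and 0.0779), and the averaged copper change was -1.20 for calb2a, -1.27 for pvalb5 and -1.31 for pvalb8, all past the threshold. The calls at Cu 0.25 alone ended in that fit (adjusted p = 0.102 for calb2a and 0.0655 for pvalb5). Control replicate 1 was kept in that fit. Its mean level of the liver and pancreas markers was 6.23, close to the 6.26 of Cu 0.25 replicate 3, so arrays rich in such transcripts were not all removed.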

How the data were processed

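The authors deposited log2 expression values, and the submitters' processing notes name GCRMA as the tool, without a version. No label states the log2 scale, which was taken from the span of the values (1.02 to 15.73). The 115 control probe sets were left out, and probe sets above 4 in at least 3 of the 30 arrays were kept (10531 of 15502). Array medians ran from 5.53 to 5.63, with 9782 to 10416 probe sets above 4 in an array and correlations between arrays of 0.962 to 0.993. No array pair was identical. The number of arrays limits the precision.

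Symbols came from the platform annotation, except that 1 was updated by its gene identifier from the reference gene annotation. The names of the 5 genes were not changed by this. Fits used lmFit and eBayes in limma 3.58.1 (R 4.3.3) over all 30 arrays, with group means, the title batch as a fixed term and 18 residual degrees of freedom, and were tested on simulated data. Adjusted p is Benjamini-Hochberg over the 10531 probe sets. Pair differences came from an ordinary linear model of the within-array difference. Named were the 5 genes, the 3 genes most like each, and up to 4 called genes of each list; calm3a and hpca were added after their values were seen. Alternatives changed the batch term, filter, normalization, prior, weights and arrays. The genes and lists were chosen with earlier results of these data known. Replicates were numbered in accession order.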

Additional observations from a re-analysis of the deposited data

How the results depend on the processing

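For the 5 genes in averaged copper and in Cu 0.6 against control, 116 of 120 refitted values kept their side of the threshold. Of these, 8 of pvalb6 and pvalb7, all near 0 and none past the threshold, changed sign. The other 4 missed the threshold, at -1.35 for calb2a, -1.36 for pvalb5 and -1.39 for pvalb8 within title batch 1 and at -1.61 for pvalb8 within title batch 2, fits of fewer arrays. Leaving out 1 array at a time gave averaged copper changes of -1.47 to -1.32 for calb2a, -1.44 to -1.29 for pvalb5, -1.60 to -1.37 for pvalb8, -0.02 to 0.03 for pvalb6 and 0.06 to 0.14 for pvalb7. At Cu 0.6 the ranges were -2.40 to -2.23, -2.61 to -2.27, -3.62 to -3.09, -0.08 to 0.10 and -0.09 to 0.17. The rank trend of calb2a, pvalb5 and pvalb8 passed in all 11 alternatives and in all 12 fits without 1 array. Over all comparisons, 150 of 1745 refitted changes had the other sign, none past the threshold on either side. Counts of probe sets past the threshold moved more: averaged copper 458 fell to 229 without title batch 3, 38 within title batch 2 and 0 within title batch 1, and rose to 782 with array weights (299 to 681 without 1 array). Cu 0.6 gave 171, and 36 without title batch 3, 374 with weights and 50 with the compared groups alone (59 to 135 without 1 array). Cu 0.25 gave 37, and 0 and 59 without title batch 3 and with quantile normalization (0 to 39). The trend gave 235, and 51, 495 and 67 (67 to 385), ordered as for Cu 0.6. Cu 0.1 gave 0, and 4 without a batch term, 1 without a filter and 1460 with weights. The mixtures with CPF 0.1, 0.25 and 0.6 against control gave 18, 19 and 10, and 0 to 1045, 0 to 729 and 0 to 166 over the alternatives. CPF 0.1, 0.25 and 0.6 alone gave 0, 0 and 1, and 263, 18 and 396 with weights. The cause of these shifts was not tested. With the compared groups alone, pvalb8 at Cu 0.25 passed (adjusted p = 0.0428), while the mixture calls of calb2a and pvalb5 and the step of pvalb5 from Cu 0.1 to Cu 0.6 (0.291) did not. From Cu 0.1 to Cu 0.6, pvalb8 passed without a batch term (0.0382), and pvalb5 did not without a filter (0.0659). Each gene had 1 probe set, so averaging probe sets changed nothing. No paired analysis was possible because replicate numbers follow accession order only and so pair nothing; the title date is already a term of the fit.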
